A study of Mus musculus with 6 samples.

Results

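The genes described here are 41 genes of the antioxidant response of the mouse lung: the transcription factor NRF2 and its inhibitor, enzymes that NRF2 is known to control, and the wider set of enzymes that make, use and recycle glutathione and thioredoxin. They were taken by name for their known roles, in a list drawn up with earlier results of these data known, and all 41 were found among the 23183 genes of the deposited tables. RNA from mouse lung of C57BL/6 background was sequenced in 6 libraries, 3 labelled as given saline and 3 labelled as given lipopolysaccharide (LPS), a molecule of the outer membrane of Gram-negative bacteria, both by instillation into the trachea. No dose, time after instillation, age or statement of separate animals was given in the labels, so the p-values describe how far these 6 libraries spread, a spread that may be technical. The labels conflict on genotype: titles and design text name wild-type mice throughout, whereas the genotype field names wild type for the 3 saline libraries, LCN2-/- for LPS 1 and LPS 2 and LCN4-/- for LPS 3. Lcn2 RNA stood at 13.60, 13.29 and 13.82 in LPS 1 to 3 and at 8.20, 11.28 and 10.11 in saline 1 to 3, on the deposited scale of log2(value + 1), which goes against the LCN2-/- label if the deletion removes the measured transcript. Treatment and the genotype field cannot be told apart in these libraries, and groups are called by treatment throughout.

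NRF2, encoded by Nfe2l2, is held in the cytosol and marked for degradation by KEAP1. Oxidants and electrophiles modify KEAP1, after which NRF2 enters the nucleus and, paired with a small MAF protein, binds antioxidant response elements near genes for quinone reductase, glutathione synthesis, peroxide removal and NADPH supply. In the lung these enzymes work in the airway and alveolar epithelium, in resident macrophages and in the lining fluid, where glutathione is abundant, and recruited neutrophils add an oxidant load through their NADPH oxidase.

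All 41 genes passed the filter on low values and were tested, and all differences below are LPS minus saline on the log2 scale, with the standard error (SE) and a Benjamini-Hochberg adjusted p from limma over 13116 genes. Of the 41, 25 were higher with LPS (61%), 5 were lower (12.2%) and 11 did not pass an adjusted p of 0.05. Over all 13116 genes, 25.7% were called higher, 24.3% lower and 50.1% either way. The 3 LPS values (2 for the 9 genes without a value in LPS 3) all lay above the 3 saline values for 28 of the 41, against 32.7% of all genes. For 5 they all lay below, against 30.7% of all genes. The median difference was 0.73 over the 41 genes and 0.02 over all genes, and single genes ran from -1.66 for Sod3 to 2.78 for Sod2. In bulk RNA, fewer cells of a type and less RNA per cell cannot be told apart.

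How the libraries were brought to a common scale matters for these counts. Before the log, the values sum to between 467483 and 552368 in the saline libraries and to between 854330 and 885427 in the LPS libraries, over the 18699 genes with a value in all 6. Setting these sums equal moved the median difference of all genes from 0.02 to -0.67 and that of the 41 genes from 0.73 to -0.06, and 33 of the 41 stayed above the median of all genes. With equal sums, 8 of the 41 were called higher and 14 lower, against 6.08% and 63.6% of all genes. Quantile normalization, which forces the same distribution on every library, called 8 higher and 5 lower among the 32 genes with 6 values. Over all genes with 6 values it called 21.4% higher and 22.9% lower, so the count of higher members was near the background there. Called higher on the deposited scale and under both other scalings were 8 genes, namely Nqo1, Slc7a11, Gsr, Gpx2, Sod2, Txn1, Prdx5 and Taldo1, and called lower under all were 5, namely Sod3, Cat, Gstm1, Gstm2 and Gstt1. The share of all genes called under every scaling was not computed. These counts of 8 and 5 are therefore not read as a result about the set. For the genes without a value in LPS 3, the quantile value here and below comes from the 5 other libraries. Those of the 13 genes with a value in LPS 3 also kept their calls when all genes were normalized over those 5 libraries. For the rest of the 13 this is the same run and no further check. Differences of the other 17 genes called higher hold on the deposited scale, and the scaling under which each loses its call is given with it.

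**Figure D1:**
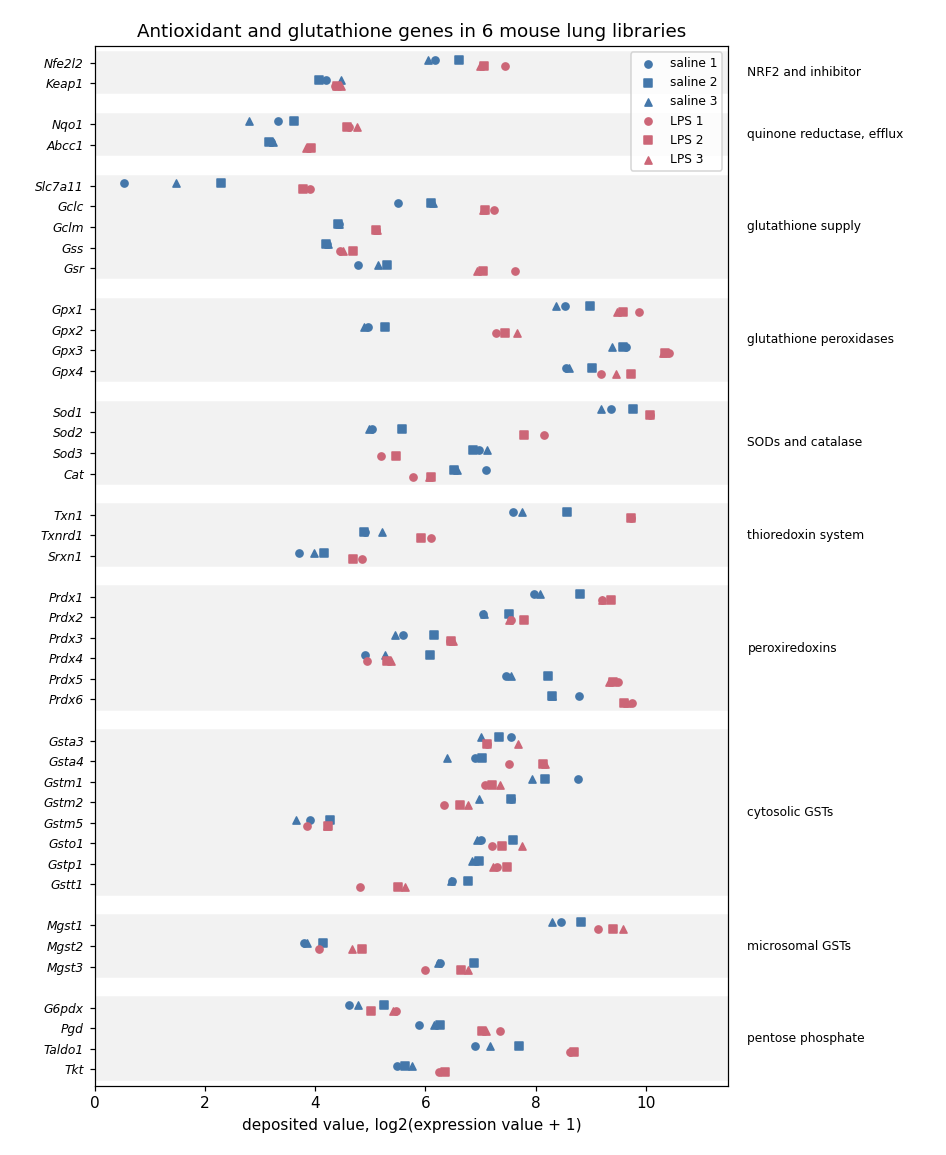
Deposited level, as log2(value + 1), of each of the 41 genes in the 3 saline and 3 LPS libraries, with each library drawn as a point and genes grouped by role. For 28 genes every LPS point lies to the right of every saline point, for 5 every LPS point lies to the left, and for 8 the groups overlap.

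Nfe2l2 (chromosome 2, 75675513 to 75704641, minus strand, in the mm10 build as all positions here) was higher with LPS on the deposited scale. It read 6.17, 6.61 and 6.05 in saline 1 to 3 and 7.44, 7.07 and 6.99 in LPS 1 to 3. The groups did not overlap, and the difference was 0.89 (SE 0.20, adjusted p = 0.00638), a 1.85-fold higher value. The call was lost with quantile normalization (0.35) and with equal sums (0.091, which is 0.76 above the median of all genes). Keap1 RNA stood at 4.19, 4.08 and 4.47 with saline and at 4.37, 4.40 and 4.48 with LPS, and overlapping groups gave a difference of 0.17 (SE 0.15, adjusted p = 0.364). Its sign turned under both other scalings, to -0.0016 with quantile normalization and -0.59 with equal sums. The second was lower by call, though 0.079 above the median of all genes.

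Nqo1 (chromosome 8, 107388225 to 107403206, minus strand), a quinone reductase widely used as a readout of NRF2 activity, rose under all scalings. Its values were 3.32, 3.62 and 2.80 with saline against 4.62, 4.59 and 4.76 with LPS, 2.65-fold higher. The difference of 1.41 (SE 0.20, adjusted p = 0.000724) became 0.66 with equal sums and 1.35 with quantile normalization. Abcc1, an export pump for glutathione conjugates, held 3.19, 3.17 and 3.24 with saline and 3.89, 3.93 and 3.84 with LPS. These narrow groups differed by 0.68 (SE 0.13, adjusted p = 0.00241), and by 0.70 with quantile normalization. With equal sums the sign turned, to -0.051, which is 0.62 above the median of all genes.

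The core of the antioxidant response element, TGACNNNGC on either strand, was looked for in the promoters that RefSeq gives for the GRCm38.p6 assembly, from 250 bases before to 50 bases after each start. Of the 41 genes, 35 had at least 1 such promoter, and 11 of the 35 held the core in at least 1 (31.4%), against 17.2% of the 9968 tested genes with a promoter and 12.4% of all 32851 promoters. The 11 were Nfe2l2, Gclm, Sod1, Txnrd1, Srxn1, Prdx1, Gsta3, Gstm5, Mgst1, G6pdx and Pgd. By result, they were 7 of the 20 higher genes with a promoter, 0 of the 4 lower and 4 of the 11 that did not pass. None of the 7 genes with a promoter among the 8 called higher under all scalings held it. The share of all genes with the core was not split by result. These small counts are not read as a difference between results. A match is a string of letters and not a shown binding site, and its lack in this window says nothing of sites elsewhere. Shown are 4 promoters with a match, from genes of glutathione synthesis (Gclm), the thioredoxin system (Txnrd1, Srxn1) and the peroxiredoxins (Prdx1), beside those of Gpx2, among the genes with the largest rise, and Gstm1, which fell. Capitals mark the match to the core, on the minus strand of the gene in all 4, so that it reads as its reverse complement. Each is written 5′ to 3′ in the direction of its gene:
Prdx1, chr4:116685349-116685648, plus strand: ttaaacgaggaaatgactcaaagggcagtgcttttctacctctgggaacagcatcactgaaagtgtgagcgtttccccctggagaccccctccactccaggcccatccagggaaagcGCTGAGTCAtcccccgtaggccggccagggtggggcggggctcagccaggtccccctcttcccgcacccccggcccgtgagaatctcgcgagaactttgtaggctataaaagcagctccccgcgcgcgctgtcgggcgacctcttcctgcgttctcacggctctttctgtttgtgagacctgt
Srxn1, chr2:152105274-152105573, plus strand: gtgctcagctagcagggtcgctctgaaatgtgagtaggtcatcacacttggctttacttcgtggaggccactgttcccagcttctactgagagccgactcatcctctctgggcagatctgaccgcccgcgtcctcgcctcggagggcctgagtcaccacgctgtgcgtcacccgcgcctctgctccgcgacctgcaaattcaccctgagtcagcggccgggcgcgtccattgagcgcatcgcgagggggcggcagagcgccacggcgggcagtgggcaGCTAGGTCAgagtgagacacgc
Gclm, chr3:122245307-122245606, plus strand: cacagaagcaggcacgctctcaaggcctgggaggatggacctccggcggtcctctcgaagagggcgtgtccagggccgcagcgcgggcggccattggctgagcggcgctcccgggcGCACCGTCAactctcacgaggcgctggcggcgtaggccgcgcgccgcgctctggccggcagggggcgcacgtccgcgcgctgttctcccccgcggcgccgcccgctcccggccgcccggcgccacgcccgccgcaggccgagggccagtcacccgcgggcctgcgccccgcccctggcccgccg
Txnrd1, chr10:82858956-82859255, plus strand, 1 of its 3 RefSeq promoters: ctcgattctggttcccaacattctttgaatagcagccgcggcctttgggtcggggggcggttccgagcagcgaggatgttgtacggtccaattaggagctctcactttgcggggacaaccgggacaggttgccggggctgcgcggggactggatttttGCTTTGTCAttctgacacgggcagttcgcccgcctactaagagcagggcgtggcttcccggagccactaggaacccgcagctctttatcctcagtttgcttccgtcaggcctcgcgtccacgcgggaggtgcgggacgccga
Gpx2, chr12:76795505-76795804, minus strand: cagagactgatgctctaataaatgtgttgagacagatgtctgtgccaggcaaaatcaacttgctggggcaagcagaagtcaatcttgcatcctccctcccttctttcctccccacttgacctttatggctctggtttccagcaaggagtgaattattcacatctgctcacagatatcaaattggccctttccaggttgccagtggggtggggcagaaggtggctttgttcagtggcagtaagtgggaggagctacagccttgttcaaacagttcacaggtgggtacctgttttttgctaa
Gstm1, chr3:108017769-108018068, minus strand, 1 of its 2 RefSeq promoters: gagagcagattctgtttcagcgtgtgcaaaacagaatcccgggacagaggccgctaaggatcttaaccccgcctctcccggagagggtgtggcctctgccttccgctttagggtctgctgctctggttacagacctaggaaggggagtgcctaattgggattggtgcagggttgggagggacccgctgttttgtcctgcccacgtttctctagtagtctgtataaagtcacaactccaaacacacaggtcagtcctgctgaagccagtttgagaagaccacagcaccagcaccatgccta
Counted in bases from the start, negative before it, the match begins at -133 in Prdx1, -134 in Gclm, -92 in Txnrd1 and 29 in Srxn1. In Prdx1 the matched word, TGACTCAGC, holds within it the letters of the AP-1 element, TGACTCA, a motif found in 5 of the 35 genes and in 4.78% of the tested genes with a promoter.

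Genes of glutathione supply were mostly higher with LPS: 4 of 5 passed, and the fifth, Gss, did not. Slc7a11 (chromosome 3, 49892526 to 50443614, minus strand), the cystine importer that feeds glutathione synthesis, read 0.53, 2.30 and 1.48 with saline and 3.90 and 3.78 in LPS 1 and LPS 2. The saline libraries spread widely, yet the groups did not overlap, and the difference was 2.40 (SE 0.42, adjusted p = 0.00234), with 1.79 under equal sums and 2.45 under quantile normalization. The longest annotated Slc7a11 transcript contains 373 bases that are at least 95% identical to Tuba1a, Tuba1b and Tuba1c, and Tuba1c was itself higher by 2.13. The sources used here do not say how reads were divided between them, so the Slc7a11 value is uncertain.

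The rate-limiting enzyme of glutathione synthesis, glutamate-cysteine ligase, has a catalytic subunit (Gclc) and a modifier subunit (Gclm). Gclc stood at 5.51, 6.10 and 6.14 with saline and 7.24, 7.08 and 7.05 with LPS, a difference of 1.20 (SE 0.20, adjusted p = 0.00134). Gclm held nearly constant values within each group, 4.44, 4.42 and 4.43 against 5.11, 5.10 and 5.13, and differed by 0.68 (SE 0.13, adjusted p = 0.00264). Both kept their call with quantile normalization (0.70 and 0.44), Gclm not when it was run without LPS 3 (0.41), and both lost it with equal sums, where Gclc stood at 0.41 and Gclm turned sign to -0.090, which is 0.58 above the median of all genes. Gss, which joins glycine to complete glutathione, was 0.33 higher (SE 0.14, adjusted p = 0.0719) and lower by call with equal sums (-0.44). It overlaps Acss2 on the other strand, which was lower by call (-0.84).

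Gsr (chromosome 8, 33652523 to 33698163, plus strand) encodes glutathione reductase, which returns oxidized glutathione to its reduced form with NADPH. It read 4.78, 5.30 and 5.14 with saline and 7.63, 7.04 and 6.94 with LPS. The gap between the groups was far wider than the spread within either, and the value was 4.39-fold higher (difference 2.13, SE 0.22, adjusted p = 0.000170). With equal sums the difference was 1.34 and with quantile normalization 1.69. Within each library, the log2 ratio of Gsr to Gss, which a rescaling of the whole library leaves as it is apart from the added 1, went from 0.85 ± 0.27 (SD, n = 3) with saline to 2.66 ± 0.46 (SD, n = 3) with LPS. This pair and the pairs below were chosen after values were seen, so the direction of each change follows from the choice. Of the pairs computed, Gclc to Gclm changed least, by 0.52, and Nqo1 to Keap1 changed by 1.24.

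The 4 glutathione peroxidases Gpx1 to Gpx4 were higher on the deposited scale, with the largest difference in Gpx2, whereas Gpx7 (0.018, SE 0.26) and Gpx8 (-0.0049, SE 0.21), from the further list of glutathione enzymes, did not pass. Gpx2 (chromosome 12, 76792333 to 76795554, minus strand), the epithelial form best known from the gut and airway, read 4.95, 5.28 and 4.89 with saline and 7.28, 7.45 and 7.67 with LPS. The groups stood 2.43 apart (SE 0.18, adjusted p = 6.03e-05), a 5.37-fold higher value, and 1.64 apart with equal sums and 1.97 with quantile normalization. Gpx2 overlaps Fntb on the other strand, which differed by 0.21 without passing. The pseudogene Gpx2-ps1 is 98.1% identical to Gpx2 over 572 bases. It read 0.0016, 0.00051 and 0.00072 with saline and 0.18, 0.35 and 0.25 with LPS, far below Gpx2, and was under the filter. Values above 0 but under 0.01 number 1505 to 1936 in the saline libraries and 11 to 24 in the LPS libraries. The pseudogene's difference is therefore not read.

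Gpx1, the ubiquitous cytosolic form, stood at 8.53, 8.99 and 8.38 with saline and 9.88, 9.59 and 9.48 with LPS. The difference was 1.02 (SE 0.23, adjusted p = 0.00564). Gpx3, the secreted form found in plasma and lining fluid, held 9.65, 9.58 and 9.38 against 10.43, 10.34 and 10.31, a difference of 0.82 (SE 0.20, adjusted p = 0.00906). Neither pair of groups overlapped, but both calls ended under the other scalings: Gpx1 fell to 0.20 with quantile normalization and 0.22 with equal sums, and Gpx3 to -0.039 and 0.018. Gpx3 also missed the threshold without saline 3.

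Gpx4, which reduces lipid peroxides in membranes and protects from ferroptosis, read 8.56, 9.03 and 8.61 with saline and 9.20, 9.74 and 9.47 with LPS. LPS 1 lay only just above saline 2, and the difference of 0.73 (SE 0.23, adjusted p = 0.0236) lost its call when saline 1, saline 3, LPS 2 or LPS 3 was left out. It turned to -0.091 with quantile normalization and -0.067 with equal sums. The pseudogene Gpx4-ps2 shares 99.7% of 733 bases with it. Within each library, the log2 ratio of Gpx2 to Gpx4 was -3.69 ± 0.08 (SD, n = 3) with saline and -2.0 ± 0.26 (SD, n = 3) with LPS, a change of 1.69.

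Superoxide dismutases turn superoxide into hydrogen peroxide, and 2 of the 3, Sod2 and Sod3, changed in opposite directions under all scalings. Sod2 (chromosome 17, 13006846 to 13040063, plus strand), the mitochondrial manganese enzyme and a known target of NF-kappaB, read 5.04, 5.57 and 4.98 with saline and 8.16 and 7.79 in LPS 1 and LPS 2. It was 6.87-fold higher, with a difference of 2.78 (SE 0.23, adjusted p = 0.000120), of 1.97 with equal sums and of 2.23 with quantile normalization. Sod3 (chromosome 5, 52363791 to 52371418, plus strand), the extracellular enzyme of vessel walls and alveolar matrix, read 6.98, 6.86 and 7.13 with saline and 5.20 and 5.47 with LPS. It fell by 1.66 (SE 0.19, adjusted p = 0.000357), to 0.317 times the saline value, and by more with equal sums (-2.46) and quantile normalization (-2.13). The log2 ratio of Sod2 to Sod3 within a library was -1.94, -1.29 and -2.14 with saline and 2.96 and 2.32 with LPS, a change of 4.43. The sources used here do not say whether values are scaled by gene length, so only the change of such a ratio is read, not its sign.

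Sod1, the cytosolic copper-zinc enzyme, stood at 9.38, 9.77 and 9.20 with saline and at 10.07 in both LPS libraries. The groups did not overlap, but the difference of 0.62 (SE 0.26, adjusted p = 0.0758) did not pass. It passed without saline 2 (0.78) and without the variance trend, and it turned to -0.19 with equal sums and -0.27 with quantile normalization. Cat (chromosome 2, 103453849 to 103485160, minus strand), the peroxisomal catalase that splits hydrogen peroxide, read 7.11, 6.52 and 6.58 with saline and 5.78, 6.11 and 6.07 with LPS. It fell by 0.75 (SE 0.20, adjusted p = 0.0121), and by more with quantile normalization (-1.26) and equal sums (-1.54). Of the 4 genes for superoxide and peroxide removal outside the thiol systems, 1 was thus higher, 2 were lower and 1 did not pass.

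Markers of other cells moved beside these genes. Counts of markers called, here and below, are to be read beside 25.7% of all genes called higher and 24.3% called lower. Levels before the log, summed over the markers of a list with a value in all libraries, were for fibroblasts between 1832 and 2776 with saline and between 653 and 766 with LPS, and 7 of 9 were called lower, beside the lower Sod3. The summed alveolar type 2 list went from 18190 to 19455 with saline to 13015 to 14216 with LPS, with 5 of 10 lower, and 5 of 10 endothelial markers were lower. Of the alveolar type 1 markers 4 of 8 were lower, of the T cell markers 4 of 7 and of the B cell markers 6 of 6, with B cell sums of 205 to 324 with saline and 36.3 to 60.2 with LPS. Cardiac muscle and adipocyte markers were lower in 10 of 10 and in 5 of the 5 tested. Their sums were 212 to 1893 and 51.8 to 106 with saline against 37.1 to 137 and 1.24 to 12.1 with LPS. Adipoq, Plin1, Lep and Cfd were at 0 in some library, and saline 1 had the highest cardiac sum and also the highest Cat value. The part of these cells in the results for Sod3, Cat and the lower transferases was not tested.

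**Figure D2:**
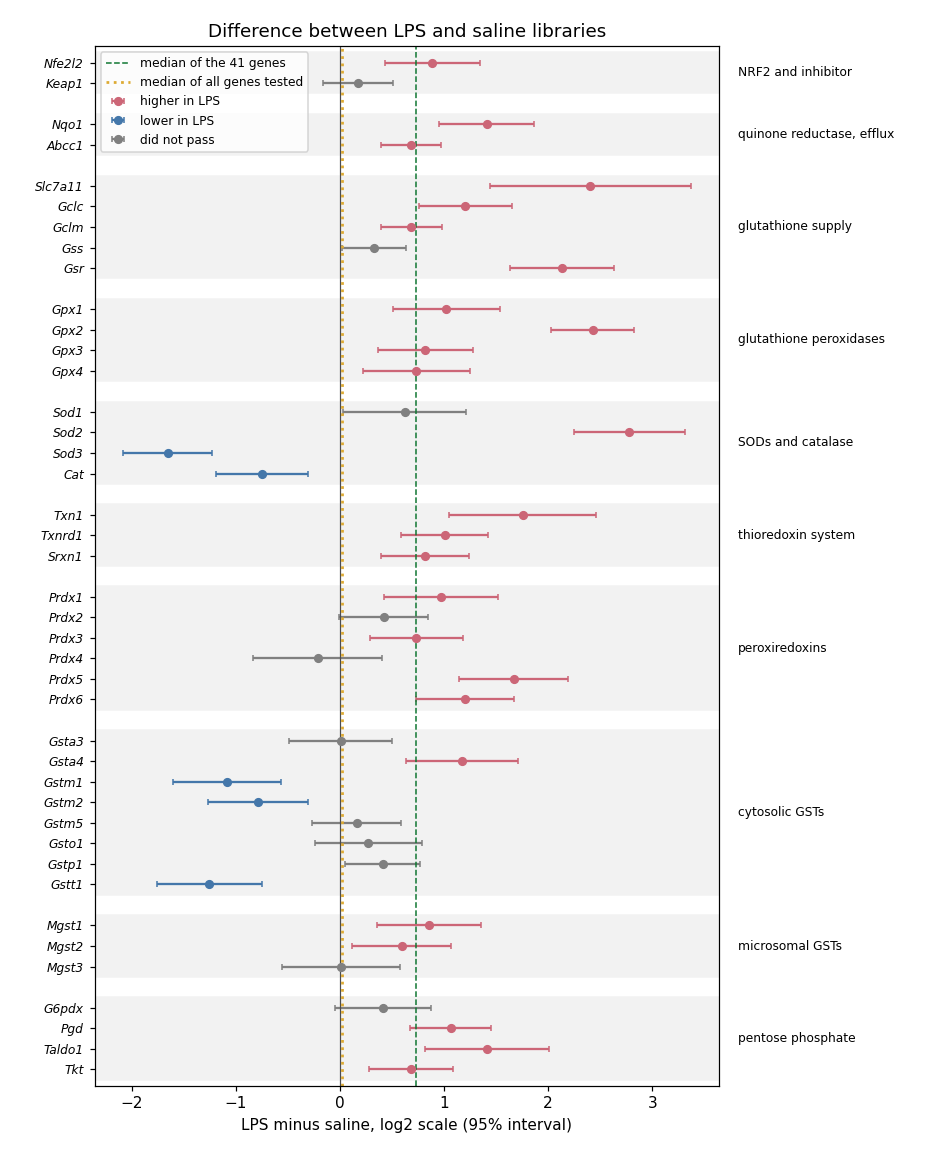
Difference between LPS and saline for each of the 41 genes on the log2 scale, with points for the estimate, bars for the 95% interval from limma and colour for the call at an adjusted p of 0.05. Sod2 (2.78), Gpx2 (2.43) and Slc7a11 (2.40) lie farthest to the right and Sod3 (-1.66) farthest to the left, and the median of the 41 genes is at 0.73.

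Txn1, Txnrd1 and Srxn1 were higher on the deposited scale, each over 2 LPS libraries. Of related genes in the further thioredoxin list, mitochondrial Txn2 was higher (0.58), and Txnrd2 (0.14), Txnrd3 (-0.36) and the thioredoxin inhibitor Txnip (0.019) did not pass. Txn1 (chromosome 4, 57943373 to 57956411, minus strand), the small dithiol protein that reduces peroxiredoxins and many other targets, read 7.58, 8.57 and 7.76 with saline and 9.72 and 9.73 with LPS. Its rise of 1.76 (SE 0.31, adjusted p = 0.00238) kept its call with equal sums (0.94) and quantile normalization (0.93). Txnrd1, the selenoprotein that reduces thioredoxin with NADPH, held 4.91, 4.89 and 5.22 against 6.10 and 5.93, a difference of 1.01 (SE 0.18, adjusted p = 0.00273). Eid3, which overlaps Txnrd1 on the same strand, had means of 0.35 with saline and 1.28 with LPS and was under the filter. Srxn1, sulfiredoxin, restores over-oxidized peroxiredoxins. Its values of 3.71, 4.16 and 3.99 against 4.85 and 4.69 differed by 0.82 (SE 0.18, adjusted p = 0.00714). Txnrd1 lost its call with equal sums (0.21) and quantile normalization (0.59), and Srxn1 lost it with equal sums (0.041).

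Peroxiredoxins are abundant peroxidases that thioredoxin or, for Prdx6, glutathione keeps reduced. Of the 6, 4 were higher on the deposited scale, and Prdx5 kept its call under all scalings. Prdx5 (chromosome 19, 6906697 to 6910106, minus strand), found in mitochondria, peroxisomes and cytosol, read 7.46, 8.22 and 7.55 with saline and 9.49, 9.41 and 9.33 with LPS. This 3.18-fold higher value (difference 1.67, SE 0.23, adjusted p = 0.000607) stood at 0.87 with equal sums and 0.88 with quantile normalization. Prdx5 shares 360 bases with Trmt112, which overlaps it on the other strand and was higher by 0.54. The libraries were directional, but whether strand was used in counting is not stated, so the division of reads between the pair is unknown there.

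Prdx6, the enzyme with peroxidase and phospholipase activity that type 2 and club cells hold in quantity, read 8.79, 8.30 and 8.30 with saline and 9.75, 9.60 and 9.66 with LPS. Its difference was 1.20 (SE 0.21, adjusted p = 0.00169). Prdx1, the main cytosolic form, stood at 7.98, 8.80 and 8.09 against 9.21, 9.36 and 9.21, a difference of 0.97 (SE 0.24, adjusted p = 0.00963). Mitochondrial Prdx3 had 5.60, 6.16 and 5.45 against 6.45, 6.47 and 6.50, a difference of 0.73 (SE 0.20, adjusted p = 0.0135) that missed the threshold without saline 3. All 3 had groups that did not overlap and all 3 lost the call under both other scalings. With equal sums they stood at 0.40 for Prdx6, 0.17 for Prdx1 and -0.058 for Prdx3. With quantile normalization they stood at 0.33, 0.16 and 0.25.

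Prdx2 and Prdx4 did not pass. Prdx2, which red cells hold in large amounts, read 7.04, 7.51 and 7.07 with saline and 7.56, 7.79 and 7.53 with LPS, a difference of 0.42 (SE 0.19, adjusted p = 0.0916) that passed without saline 2 and turned negative with equal sums (-0.38, by call) and quantile normalization (-0.23). Beside it, 5 of the 8 erythroid markers tested were higher, with sums of 3698 to 6599 with saline and 8566 to 14702 with LPS. The part of red cells in the Prdx2 values was not tested. It also overlaps Junb, higher by 1.97, on the other strand. Prdx4, the form of the endoplasmic reticulum, read 4.91, 6.08 and 5.27 with saline and 4.94, 5.31 and 5.38 with LPS, a difference of -0.21 (SE 0.28, adjusted p = 0.541), and was lower by call with equal sums (-0.99). Within each library the log2 ratio of Prdx5 to Prdx4 was 2.32 ± 0.21 (SD, n = 3) with saline and 4.20 ± 0.31 (SD, n = 3) with LPS.

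Among the 8 cytosolic glutathione transferases, which attach glutathione to electrophiles, 1 was higher, 3 were lower and 4 did not pass. Of the 3 mu-class genes among them, Gstm1 (chromosome 3, 108012255 to 108017973, minus strand) and Gstm2 (chromosome 3, 107981702 to 107986453, minus strand) were lower and Gstm5 did not pass. Gstm1 read 8.77, 8.18 and 7.94 with saline and 7.08, 7.21 and 7.35 with LPS, a fall to 0.472 times the saline value (difference -1.08, SE 0.23, adjusted p = 0.00439). Gstm2 read 7.56, 7.56 and 6.97 against 6.33, 6.62 and 6.77, a difference of -0.79 (SE 0.21, adjusted p = 0.0132) that missed the threshold without LPS 1. Both were lower by more with quantile normalization (-1.80 and -1.38) and equal sums (-1.88 and -1.58). The neighbour Gstm5 (chromosome 3, 107895821 to 107898686, plus strand) overlapped between groups and differed by 0.16 (SE 0.19, adjusted p = 0.50), or by -0.59 and lower by call with equal sums. In the further list of glutathione enzymes, mu-class Gstm4 (-0.20) and Gstm6 (-0.38) did not pass and Gstm7 was lower.

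Gstt1 (chromosome 10, 75783813 to 75798584, minus strand), the theta-class enzyme, read 6.49, 6.78 and 6.46 with saline and 4.82, 5.51 and 5.64 with LPS. Each LPS value lay below each saline value, and the fall of 1.25 (SE 0.23, adjusted p = 0.00198) was larger with quantile normalization (-1.69) and equal sums (-2.04). In the opposite direction, Gsta4, which removes the lipid peroxidation product 4-hydroxynonenal, read 6.91, 7.02 and 6.39 with saline and 7.53, 8.14 and 8.18 with LPS. The difference of 1.17 (SE 0.24, adjusted p = 0.00378) lost its call with quantile normalization (0.56) and equal sums (0.37). Within each library, the log2 ratio of Gsta4 to Gstm1 was -1.52 ± 0.35 (SD, n = 3) with saline and 0.73 ± 0.25 (SD, n = 3) with LPS, a change of 2.26.

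The remaining cytosolic transferases did not pass on the deposited scale. Gstp1, of the pi class, differed by 0.41 (SE 0.16, adjusted p = 0.0561) with groups that did not overlap, and passed without saline 2. Its copy Gstp2 is 98.2% identical over 707 bases and differed by -0.44 (adjusted p = 0.0599), so the division of reads between the pair leaves both uncertain. Gsto1, of the omega class, differed by 0.27 (SE 0.23) and Gsta3, of the alpha class, by 0.01 (SE 0.22), with overlapping groups. With equal sums all 3 turned sign and were lower by call (Gstp1 -0.39, Gsto1 -0.52, Gsta3 -0.79), and with quantile normalization all 3 turned sign (-0.21, -0.34 and -0.62), Gsta3 by call.

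Of the 3 membrane-bound transferases, Mgst1 and Mgst2 were higher on the deposited scale and Mgst3 did not pass. Mgst1, which also reduces lipid peroxides, read 8.46, 8.82 and 8.29 with saline and 9.14, 9.41 and 9.59 with LPS. The difference of 0.86 (SE 0.22, adjusted p = 0.0108) missed the threshold without saline 3 and stood at 0.022 with quantile normalization and 0.054 with equal sums. Mgst2, which can also make leukotriene C4, read 3.80, 4.14 and 3.85 against 4.07, 4.85 and 4.67. LPS 1 lay below saline 2, and the difference of 0.60 (SE 0.21, adjusted p = 0.0406) lost its call without saline 1, saline 3, LPS 2 or LPS 3, with quantile normalization (0.47) and with equal sums (-0.16, a change of sign). Mgst3 differed by 0.01 (SE 0.25, adjusted p = 0.969), with a sign that turned under both other scalings (-0.51 and -0.78, the second by call).

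The pentose phosphate pathway supplies NADPH to glutathione reductase and thioredoxin reductase. G6pdx, its entry enzyme, did not pass (difference 0.42, SE 0.20, adjusted p = 0.117, and -0.36 with equal sums), and its groups overlapped, although it passed without saline 2. Pgd, Taldo1 and Tkt were higher on the deposited scale, while Rpia (0.092) and Rpe (0.018), which interconvert the pentose phosphates, did not pass. Pgd, the second NADPH-forming step, read 5.88, 6.27 and 6.15 with saline and 7.35, 7.03 and 7.10 with LPS, a difference of 1.06 (SE 0.17, adjusted p = 0.00130) that kept its call with quantile normalization (0.52 over 6 libraries, but not without LPS 3) and lost it with equal sums (0.27). Taldo1 (chromosome 7, 141392199 to 141402968, plus strand), transaldolase, read 6.90, 7.70 and 7.17 against 8.63 and 8.71. It rose by 1.41 (SE 0.26, adjusted p = 0.00294), and by 0.60 with equal sums and 0.68 with quantile normalization, past the threshold in each. Tkt, transketolase, stood at 5.48, 5.64 and 5.75 against 6.25 and 6.36, a difference of 0.68 (SE 0.18, adjusted p = 0.0125) that did not pass with equal sums (-0.12), with quantile normalization (0.19) or without LPS 2.

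**Figure D3:**
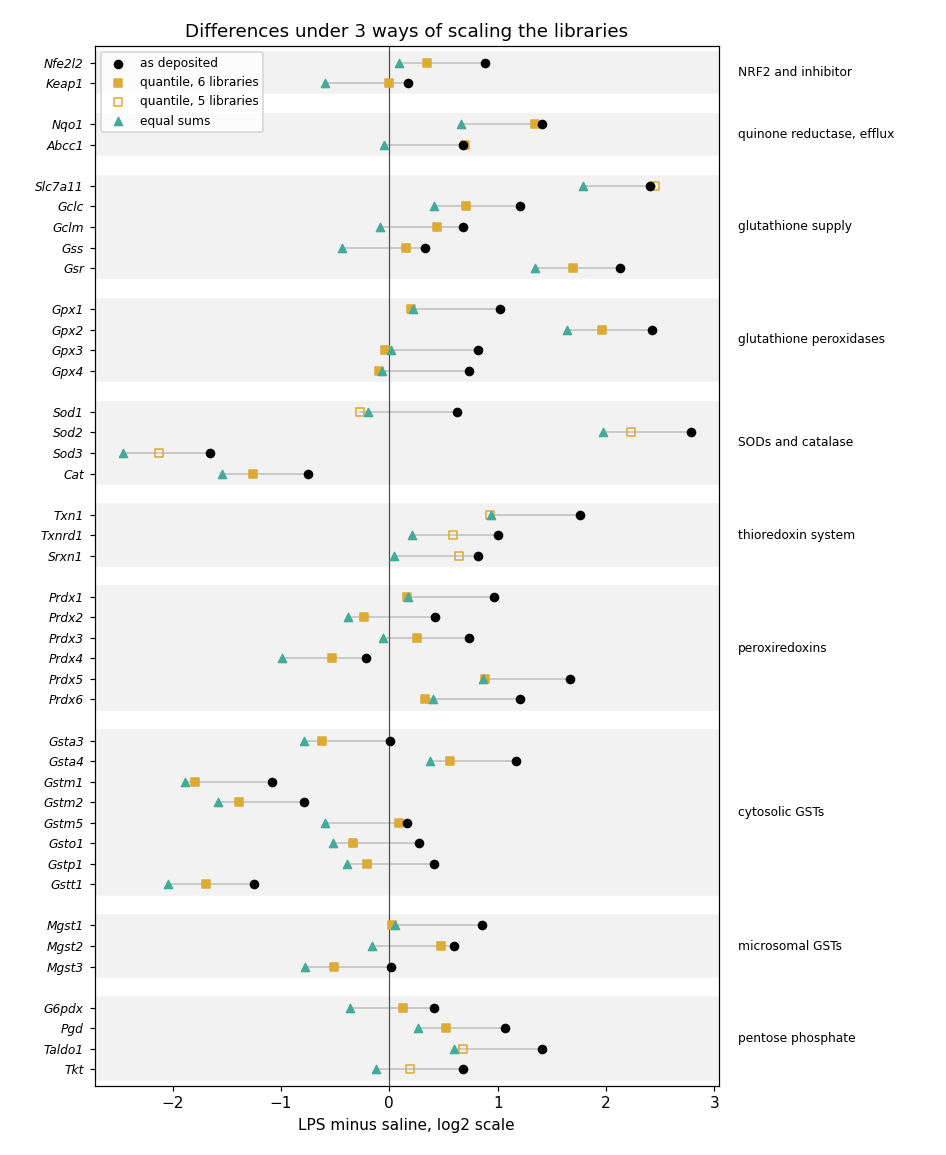
Difference between LPS and saline for each of the 41 genes on the deposited scale, after quantile normalization and after setting the library sums equal, with a vertical line at 0 and open squares for quantile values over 5 libraries. Values shift to the left with equal sums, where 33 of 41 genes lie above the median of all genes (-0.67) and 19 above 0.

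Saline 2 was often the highest of the saline libraries for these genes, and LPS 1 often the lowest of the LPS libraries. Over the 32 genes with a value in all libraries, saline 2 was the highest saline library for 21 (65.6%, against 39.2% of the 10295 tested genes with 6 values). LPS 1 was the lowest LPS library for 17 (53.1%, against 35.9%). Saline 2 also had a neutrophil marker sum of 2053, against 711 and 728 in saline 1 and saline 3. With LPS the sum lay between 9815 in LPS 2 and 25408 in LPS 1, and 8 of the 10 neutrophil markers tested, of 13 listed, were higher, with Mpo at 0 in some library. Of the 10 markers of monocytes and recruited macrophages, 9 were higher and 1, Lyz2, was lower, and their summed level was 3627 to 5302 with saline and 3008 to 3773 with LPS. Neutrophils and macrophages express Sod2, Gpx1, Gsr, Txn1, Prdx5 and Taldo1, and the part of these cells in their higher values was not tested.

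Epithelial markers did not move as a block. Of 7 club cell markers 1 was lower and 6 did not pass, with sums of 66789 to 105670 with saline and 151831 to 167510 with LPS. Of 8 ciliated cell markers 4 were higher and 1 was lower. The 6 of these with a value in all libraries summed to 572 to 753 with saline and 317 to 586 with LPS. Alveolar macrophage markers summed to between 428 and 616 with saline and between 518 and 528 with LPS, with 1 of 10 higher and 4 lower. The 32 genes with 6 values summed to between 4152 and 5478 with saline and between 7941 and 8174 with LPS. These sums and the marker sums are on the deposited scale. On that scale the sums of all 18699 genes with 6 values were also higher with LPS (854330 to 885427, against 467483 to 552368 with saline). The higher sum of the 32 genes is therefore not read as a rise of the set.

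**Figure D4:**
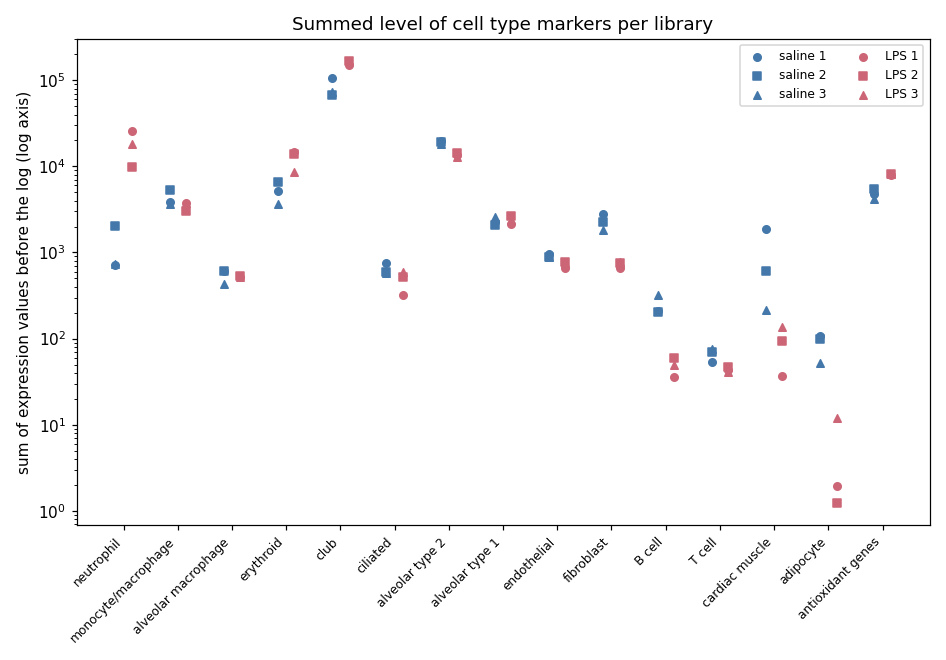
Summed level before the log of marker lists for cell types in the 6 libraries, with each library drawn as a point on a log10 axis. Neutrophil sums are higher in all 3 LPS libraries (9815 to 25408) than in the saline libraries (711 to 2053), and fibroblast, cardiac muscle and adipocyte sums are lower.

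Further genes of the NRF2 pathway, from a list of 28 with 27 tested, were higher in 12 (44.4%) and lower in 4 (14.8%) cases. The other 11 did not pass, and the median difference was 0.33. These counts, and those of the lists that follow, are to be read beside 25.7% of all genes higher and 24.3% lower. Hmox1, the heme oxygenase that is the classical stress-induced target, read 4.32, 6.39 and 5.33 with saline and 6.81, 6.58 and 6.44 with LPS. Saline 2 lay just below the LPS libraries, and the difference of 1.26 (SE 0.42, adjusted p = 0.0314) lost its call under both other scalings (0.86 with quantile normalization, 0.48 with equal sums). It also lost it when any library but saline 2 was left out, and stood at 0.75 without saline 1 and at 1.78 without saline 2. Maff, a small MAF partner of NRF2, was 2.34 higher (SE 0.26, adjusted p = 0.000242). Akr1b8, an aldo-keto reductase, was 1.91 higher (SE 0.28, adjusted p = 0.000791). Lower were the aldose reductase Akr1b3 (-1.20), the aldehyde oxidase Aox1 (-0.88) and the epoxide hydrolase Ephx1 (-0.71). Ephx1 missed the threshold without saline 1 or LPS 1, and the calls of the other 4 held under all scalings, as did that of Ephx1. With equal sums, 2 of the 27 were called higher and 14 lower, and this count, like those of the lists that follow, is to be read beside 6.08% of all genes higher and 63.6% lower.

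Of 28 tested among 31 other genes of glutathione use, 10 were higher (35.7%), 3 were lower (10.7%) and 15 did not pass, with a median of 0.11. The alpha-class transferase Gsta1 had the largest difference of them, with 0.41, 0.52 and 0.42 with saline and 4.26, 4.05 and 3.70 with LPS. The difference was 3.55 (SE 0.17, adjusted p = 1.15e-05). Gsta2, a close copy in sequence, read 2.77, 1.91 and 1.60 against 2.24, 2.88 and 2.58 and did not pass. How reads of the pair were divided is not stated in the labels. Esd, which completes glutathione-dependent formaldehyde removal, was 2.01 higher, and Ggct, of the gamma-glutamyl cycle, was 1.97 higher. Gstm7 (-1.32), the mitochondrial transferase Gstk1 (-0.76) and the oxoprolinase Oplah (-0.63) were lower, Oplah not without saline 1, saline 3 or LPS 1. These 6 kept their calls under quantile normalization and equal sums, Oplah not under quantile normalization without LPS 3 (-0.57), and with equal sums 5 of the 28 were higher and 16 lower.

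Of 22 other genes of thioredoxin-linked reduction and protein repair, 6 were higher (27.3%), 6 were lower (27.3%) and 10 did not pass, with a median of 0.09. These shares were near those of all genes. Msrb1, a selenoprotein that repairs oxidized methionine, was 2.09 higher and Selenbp1 1.46 higher, both also with equal sums and quantile normalization, Selenbp1 not when the latter was run without LPS 3 (0.48). Txndc17, a thioredoxin-like protein with 2 LPS values, was 0.90 higher, not without saline 3 or LPS 2 and not under equal sums (0.092) or quantile normalization (0.43). Lower on the deposited scale, with equal sums and with quantile normalization were the sestrins Sesn3 (-1.80) and Sesn1 (-1.22) and the paraoxonase Pon3 (-0.88). With equal sums, 2 of the 22 were higher and 16 lower.

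Of 12 other enzymes of NADPH supply, 3 were higher (25%), 4 were lower (33.3%) and 5 did not pass, with a median of 0.03. Mthfd2, of mitochondrial folate metabolism, was 1.66 higher under a call that held in all scalings. Pgls (0.86) and the NAD kinase Nadk (0.77) were higher on the deposited scale but not with quantile normalization (0.37 and 0.30) or equal sums (0.065 and -0.019). The folate enzyme Aldh1l1 (-0.71), the mitochondrial transhydrogenase Nnt (-0.71) and the mitochondrial NAD kinase Nadk2 (-0.59) were lower also with equal sums and quantile normalization, but Nnt (-0.48) and Nadk2 (-0.42) lost the call when the latter was run without LPS 3. With equal sums, 1 of the 12 was higher and 8 were lower.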

How the data were processed

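RNA was extracted with Trizol and made into directional libraries, per the labels' protocols, and reads were aligned with TopHat to mm10, per the submitters' processing notes. The sources used here do not name the counter, annotation or scaling. The authors deposited 1 table per library of values on a log2 scale, read from the values as log2(value + 1); 0 columns were left unmapped. Depth is unknown, so no count-based interval is given. Low values differ by group: every saline table has 3869 zeros and 1505 to 1936 values above 0 but under 0.01, and the LPS tables hold 5117 to 6223 zeros and 11 to 24 such values, which cannot be told apart from treatment. The LPS 3 table ends early, without 4484 genes (19.3%). No pair of libraries shared identical values of 1 or more, and correlations were 0.964 to 0.975 within saline and 0.984 to 0.988 within LPS.

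LPS was compared with saline by limma 3.58.1 in R 4.3.3 with a variance trend, on genes with a value of at least 1 before the log in at least 3 libraries, with Benjamini-Hochberg adjustment over 13116 genes and a threshold of 0.05. Folds on this scale understate changes of low genes. The fit was tested on simulated data. Gene positions are from GENCODE M21, shared sequence was searched with blastn 2.17.0 (at least 95% identity over 200 bases), and promoters are from RefSeq. The members and lists were chosen with earlier results of these data known. Named are all 41 members, up to 3 genes per direction with the largest differences from each pathway list, and Hmox1; log2 ratios between pairs of members, Gsta2, Lyz2, relatives of members that did not pass or were named beside them (Gpx7, Gpx8, Txn2, Txnrd2, Txnrd3, Txnip, Gstm4, Gstm6, Rpia and Rpe) and genes sharing sequence or position with members were added after values were seen. Alternatives were other scalings, pseudocounts, filters, thresholds, a fit without the trend, a replicate block and leaving out libraries.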

Additional observations from a re-analysis of the deposited data

How the results depend on the processing

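Scaling changed the results most. Quantile normalization covered only the 10295 tested genes with a value in every library. Of these 2204 were higher, as were 8 of the 32 members covered. A quantile normalization over 5 libraries without LPS 3, chosen after seeing the data, covered 13116 genes. Of these 2114 were higher, as were 11 of the 41 members and 17 of the 89 other pathway genes. These runs cover different genes, so their counts cannot be compared directly. With equal sums 798 genes were higher and 8342 lower, 8 members were higher and 14 lower, and 10 other pathway genes were higher and 54 lower. An adjusted p of at most 0.01 left 2033 genes higher and 2004 lower, and 20 members higher and 3 lower. A mean value of at least 5, with 9304 genes tested, left 2988 higher and 1752 lower, and moved the median difference of all genes to 0.16. Changes of sign with equal sums were Keap1 -0.59, Abcc1 -0.051, Gclm -0.090, Gss -0.44, Gpx4 -0.067, Sod1 -0.19, Prdx2 -0.38, Prdx3 -0.058, Gsta3 -0.79, Gstm5 -0.59, Gsto1 -0.52, Gstp1 -0.39, Mgst2 -0.16, Mgst3 -0.78, G6pdx -0.36, Tkt -0.12 and Nadk -0.019. With quantile normalization they were Keap1 -0.0016, Gpx3 -0.039, Gpx4 -0.091, Prdx2 -0.23, Gsta3 -0.62, Gsto1 -0.34, Gstp1 -0.21 and Mgst3 -0.51, and over 5 libraries Keap1 -0.042, Gpx3 -0.057, Gpx4 -0.15, Sod1 -0.27, Prdx2 -0.19, Gsta3 -0.81, Gsto1 -0.51, Gstp1 -0.16, Mgst1 -0.16 and Mgst3 -0.67. With saline 1 and 3 against LPS 1 and 2, Gsta3 turned to -0.17 and Prdx4 to 0.033. Beyond the changed scale, the cause was not tested.

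Leaving out 1 library gave 2461 to 3660 genes higher and 2440 to 3436 lower, 20 to 29 members higher and 4 to 5 lower, and 24 to 32 other pathway genes higher and 12 to 18 lower. The sign turned in some of these fits for Mgst3 (-0.14 to 0.25), Gsta3 (-0.18 to 0.14) and Prdx4 (-0.47 to 0.12). For the 9 members without an LPS 3 value, leaving out LPS 1 or LPS 2 leaves 1 LPS library, which is assumed to vary like the others. The labels do not state that library numbers pair the samples. Same-numbered libraries deviated from their group means with correlations of -0.23, -0.078 and -0.25, and differently numbered ones with -0.013 to 0.22. Deviations within a group cancel out, so these correlations cannot decide whether the numbers pair the libraries. With the replicate block 2793 genes were higher and 2624 lower, 25 members were higher and 5 lower, and 27 other pathway genes were higher and 14 lower. Depth cannot be judged without counts.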
